A study of Mus musculus with 4 samples.

Results

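The murinoglobulins and the inter-alpha-trypsin inhibitors are secreted protease inhibitors that the liver releases into plasma. They were followed here through 8 genes (Mug1, Mug2, Pzp, Itih1, Itih2, Itih3, Itih4 and Ambp) of the 16593 genes named on the arrays. Every probe whose platform gene symbol was one of these names was taken, which gave 12 of 25697 probes, 3 each for Mug2 and Itih4 and 1 for each other gene. The genes were picked with earlier results of the same comparison known, in which Mug2 was among the largest rises. Their differences between genotypes are therefore given as a description with standard errors, without p-values, and support nothing.

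Liver RNA was compared between mice lacking ROCK1 in the liver (ROCK1 KO), where ROCK1 is a kinase of the contractile cytoskeleton, and control mice, with 2 arrays per group. Both groups had eaten normal chow for 16 weeks. The strain, the age, the floxed allele, the driver of the deletion and the sex are not given in the sources used here, nor is it said whether the arrays came from separate animals. The p-values below therefore measure only the spread between these arrays, which may be technical, and their small number limits the precision.

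Mug1, Mug2 and Pzp belong to the alpha-macroglobulin family, whose members trap a protease once it has cut their bait region and present the trapped complex to the receptor LRP1. In mice Pzp is the circulating tetrameric alpha-macroglobulin, and the murinoglobulins are its single-chain relatives. Ambp encodes a precursor that is cleaved into alpha-1-microglobulin, a small carrier protein, and bikunin, a Kunitz-type inhibitor. Itih1, Itih2 and Itih3 encode heavy chains that are joined to bikunin through its chondroitin sulfate chain and can be passed on to hyaluronan by the protein TSG-6. Itih4 is a related plasma protein that is not joined to bikunin.

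Mug1 and Mug2 lie side by side on chromosome 6, with no other gene that has a probe between them. Their promoters are shown because the differences of these paralogues between genotypes had opposite signs. The Mug1 probe (difference -0.25, SE 0.08) was not called, and its groups overlapped before normalisation. Each window runs from 250 bases before to 50 after the start given in the promoter table, 5′ to 3′, from RefSeq on build GRCm38.p6, and the capitals mark the longest stretch that both share.
Mug1 (chr6:121838291-121838590, plus strand): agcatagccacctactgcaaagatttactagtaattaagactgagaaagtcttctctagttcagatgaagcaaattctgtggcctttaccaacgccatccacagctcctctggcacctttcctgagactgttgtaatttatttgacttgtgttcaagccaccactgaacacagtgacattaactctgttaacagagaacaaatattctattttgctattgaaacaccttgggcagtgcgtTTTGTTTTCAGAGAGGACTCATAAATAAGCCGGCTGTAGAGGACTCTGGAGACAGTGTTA
Mug2 (chr6:122006548-122006847, plus strand): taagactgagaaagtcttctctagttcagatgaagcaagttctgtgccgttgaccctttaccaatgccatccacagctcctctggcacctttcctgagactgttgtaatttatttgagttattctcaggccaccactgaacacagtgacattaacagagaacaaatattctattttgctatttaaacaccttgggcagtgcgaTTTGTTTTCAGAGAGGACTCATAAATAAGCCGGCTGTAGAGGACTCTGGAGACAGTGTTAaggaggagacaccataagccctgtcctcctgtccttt
The shared stretch runs to the last base of the Mug1 window, so its length of 60 bases is a lower limit. It begins at position -10 relative to the start of Mug1 and at -47 relative to that of Mug2. These positions hold for the promoter table only, since the RefSeq gene table places the first base of both genes farther upstream. Aligned over 272 columns, the windows were identical at 246 (90.4%), with 10 mismatches and 16 gap columns.

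Short motifs of liver and acute phase factors were searched on both strands in the same windows of all 8 genes and of 32544 promoters in all. The STAT letters TTCNNNGAA occurred in Itih4 alone, at position -51, and in 8.33% of all promoters. CTGGGAA (11.0% of all, an interleukin-6 response element), CAAAGTCCA (HNF4, 0.479%) and TGTTTAC (FOXA, 3.66%) occurred in 0 of the 8. TTGCNNCAA (2.09%) also occurred in 0 of the 8. Its spacing is wider than that of the C/EBP palindrome it was meant for, so C/EBP sites were not tested. TATAAA occurred in Itih3 and Itih4 (13.6% of all), and CCAAT in Ambp and Mug2 (37.4% of all). These matches describe letters only.

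The arrays differed in brightness before normalisation. The background, taken as the mode of the intensities, stood at 180 and 181 on the KO arrays and 128 and 124 on the control arrays. Rock1, the targeted gene, had 1 probe, which read 8.06 and 7.91 on the KO arrays and 8.51 and 8.51 on the control arrays (normalised log2 intensity; difference -0.53, SE 0.12, limma adjusted p = 0.0181). The Rock1 call did not survive leaving out KO replicate 2 (0.0961), control replicate 1 (0.0911) or control replicate 2 (0.0995). Of 12 hepatocyte markers, 11 had a probe and 0 were called by limma (4 at an unadjusted p under 0.05). Their summed normalised intensity was 307139 and 307394 in KO and 308046 and 318845 in control. The brightest of them passed an intensity of 60000, near saturation, on 2 arrays (Apoa1, Ttr and Cyp2e1) or 3 (Trf). The sum therefore cannot tell whether hepatocyte content differed. The probe of Alb, the albumin gene, was above background on only 1 of 4 arrays (7.63 and 7.71 in KO, 7.81 and 7.92 in control), so a probe at the background here does not show that a transcript is missing. Xist was above background on no array, and Eif2s3y, a Y-linked gene, on all 4 (difference -0.90, SE 0.15, limma adjusted p = 0.00522, and 0.0621 without control replicate 1).

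Mug2 was higher in ROCK1 KO liver on its bright probes, the heavy chain genes Itih1 and Itih2 were lower, and Mug1, Itih3, Itih4 and Ambp differed by less than these. A probe is called here when its limma p-value, adjusted over all probes, is under 0.05. Of the 12 probes, 2 were called higher and 2 lower, where 3.69% and 4.32% of all probes were, and 8.14% and 10.2% of the 9587 that exceeded the background limit on 2 or more arrays. Since the genes were picked with this contrast known, nothing is read from these counts. The KO and control arrays did not overlap for 10 of the 12 probes, against 51.9% of all probes, and nothing is read from this either. The 10 include Mug2 probe ILMN_1257246, which was below background on all 4 arrays. Before normalisation 7 of the 12 did not overlap, and the share of all probes was not counted on that scale. The median difference was -0.16 over the 12 probes and 0.0011 over all probes.

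**Figure D1:**
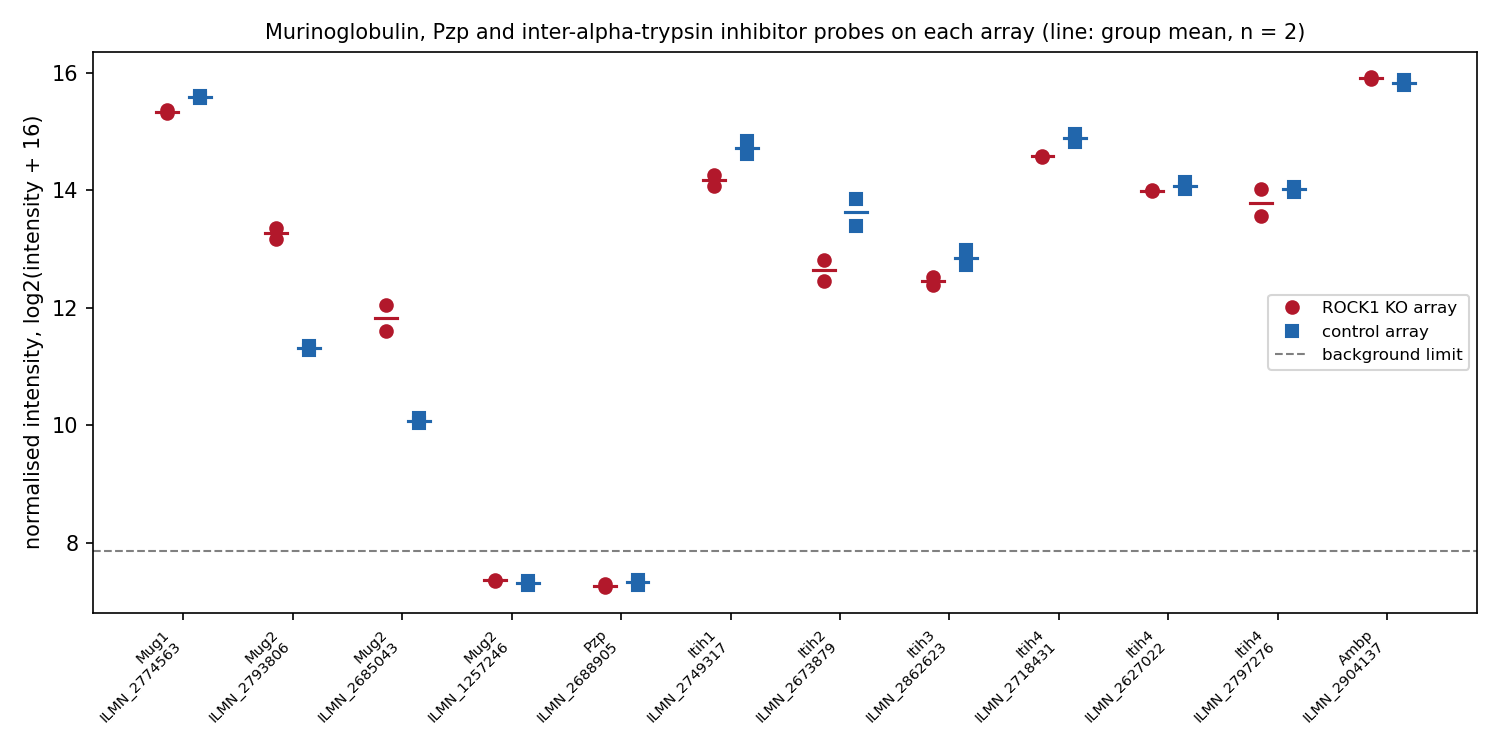
Normalised log2 intensity of each of the 12 probes on each array, with ROCK1 KO arrays (red circles) left of control arrays (blue squares), the group mean as a line and the background limit dashed. The KO arrays lie above the control arrays for Mug2 probes ILMN_2793806 and ILMN_2685043, and the third Mug2 probe and the Pzp probe lie below the limit on all 4 arrays.

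Mug1 was read by probe ILMN_2774563, whose normalised log2 intensity was 15.31 and 15.37 on the KO arrays and 15.58 and 15.61 on the control arrays. Both KO arrays lay below both control arrays (difference -0.25, SE 0.08, n = 2 per group), and the probe was not called. Before normalisation its intensities were 46240 and 42562 in KO and 51928 and 44540 in control, and the groups overlapped on that scale. Its difference was -0.52 with 75th percentile scaling in place of quantile normalisation, and -0.18 with the authors' own log2 values.

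Mug2, the adjacent paralogue, went the other way. On its brightest probe, ILMN_2793806, it read 13.18 and 13.37 in KO and 11.35 and 11.28 in control. Every KO array was above every control array, and the difference was 1.96 (SE 0.15, 3.90-fold higher in KO). Intensities before normalisation were 10784 and 11399 in KO and 2642 and 1769 in control, a ratio of means of 5.03 with the background included. Leaving out any 1 array gave differences of 1.88 to 2.07. Of all 25697 probes 15 had a larger rise, but Mug2 was picked with its large rise known, so nothing is read from this rank.

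A further Mug2 probe, ILMN_2685043, read 11.61 and 12.04 in KO and 10.04 and 10.12 in control (difference 1.75, SE 0.18, 3.35-fold higher in KO). The groups again did not overlap, and its KO arrays were spread more widely than its control arrays (SD 0.31 in KO and 0.05 in control). The third probe, ILMN_1257246, read 7.37 and 7.35 in KO and 7.27 and 7.35 in control, below the background limit of 7.85 on all 4 arrays. All 3 Mug2 probes carry the same transcript accession in the platform annotation. Probe sequences were not used here, so how far a Mug2 probe also binds Mug1 transcripts was not tested.

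Pzp was read by 1 probe, ILMN_2688905, at 7.24 and 7.29 in KO and 7.28 and 7.37 in control. It was below the background limit on all 4 arrays, and its groups overlapped. The Pzp probe thus gave no level in either genotype, and its difference of -0.06 (SE 0.09), which was 0.03 with 75th percentile scaling, is one between background readings.

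Among the heavy chain genes Itih2 differed most. It read 12.45 and 12.82 in KO and 13.40 and 13.85 in control (probe ILMN_2673879; difference -0.99, SE 0.17, 1.99-fold lower in KO). The groups did not overlap, and the spread within a group reached an SD of 0.32, in control. Before normalisation the intensities were 6507 and 7800 in KO and 11088 and 11454 in control, again without overlap. The probe was called lower, but not without control replicate 2, where the difference was -0.76.

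Itih1 read 14.08 and 14.27 in KO and 14.61 and 14.84 in control (probe ILMN_2749317; difference -0.55, SE 0.12, 1.47-fold lower in KO). Its intensities were 19386 and 20769 in KO and 25649 and 23292 in control, so the KO arrays were lower on that scale too. It was called lower, but not without control replicate 2 (-0.43) or KO replicate 1 (-0.45). Itih3 read 12.39 and 12.52 in KO and 12.73 and 12.98 in control (probe ILMN_2862623; difference -0.40, SE 0.14) and was not called. Its groups did not overlap after normalisation, but its intensities of 6196 and 6401 in KO lay between the control values of 7057 and 5976.

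Itih4, the heavy chain relative without bikunin, had 3 probes, none of which was called without a replicate block. Its brightest, ILMN_2718431, read 14.56 and 14.60 in KO and 14.83 and 14.95 in control (difference -0.31, SE 0.10), and it was called lower when the replicate number was fitted as a block. ILMN_2627022 read 14.01 and 13.98 in KO and 14.02 and 14.14 in control (difference -0.08, SE 0.11), and ILMN_2797276 read 13.57 and 14.02 in KO and 13.97 and 14.07 in control (difference -0.23, SE 0.15). The last of these is the only Itih4 probe whose groups overlapped, and its difference was 0.00068 without KO replicate 1 and -0.45 without KO replicate 2. Before normalisation, ILMN_2627022 was higher in KO without overlap (18593 and 17392 in KO, 17107 and 14074 in control), opposite in sign to its normalised difference.

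The 6 Itih probes, 3 of which read Itih4 alone, had negative differences after normalisation, with a median of -0.35, and all 6 stayed negative with every scaling tried. The median was -0.45 with 75th percentile scaling and -0.42 with that scaling after normexp background correction, settings that moved the median of all probes to 0.08 and 0.11. Ambp, the bikunin gene, read 15.90 and 15.93 in KO and 15.87 and 15.80 in control (probe ILMN_2904137; difference 0.08, SE 0.08). Its direction flipped with 75th percentile scaling (-0.40), and its intensity passed 60000, near saturation, on 1 array of each group (62865 and 56866 in KO, 63777 and 56303 in control). In bulk liver, fewer cells of a type and less RNA per cell cannot be told apart for any of these genes.

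**Figure D2:**
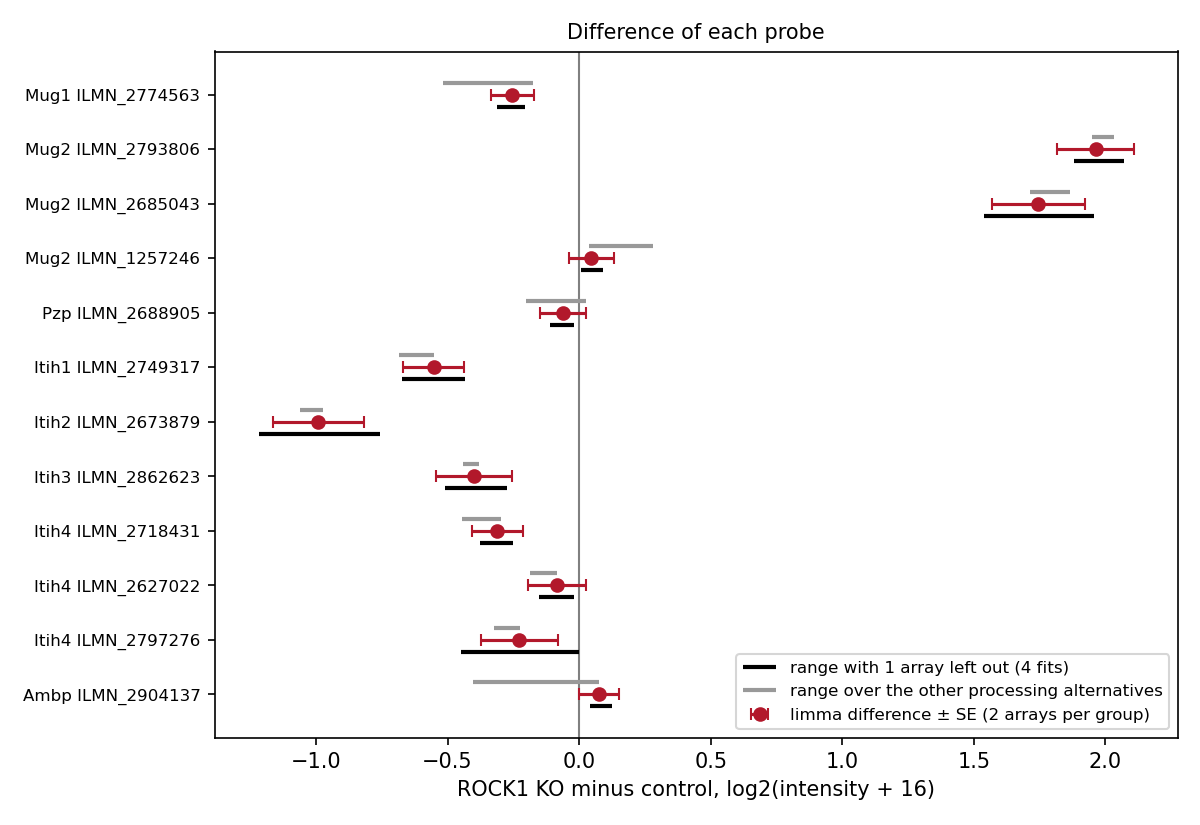
ROCK1 KO minus control difference of each of the 12 probes in log2 units (red, ± SE, 2 arrays per group), with the range over the 4 fits that each leave out 1 array (black) and over the other processing alternatives (grey). The bright Mug2 probes stay between 1.54 and 2.07 in every fit, and Itih2 stays between -1.22 and -0.76. Ranges of Ambp, Pzp and Itih4 probe ILMN_2797276 cross 0.

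To see what else of this system was measured, 96 further genes were grouped by role, each read by its brightest probe. Of these 85 had a probe, and by limma 5 rose, 11 fell and 69 were not called, where 4.2% of all genes rose and 4.63% fell. Of the 85, 57 were above background on 2 or more arrays. Among all probes above background on 2 or more arrays, 8.14% were called higher and 10.2% lower. The lists were chosen with earlier results known, so nothing is read from these counts. The median difference of the 85 genes was -0.08, against 0.0037 for all genes. When single arrays were left out, 4 of the 16 calls (B3galt6, Furin, Cebpa and Rbp4) were kept in all 4 fits and 12 were lost in at least 1.

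Among relatives of the alpha-macroglobulins no gene was called. No probe was named A2m, Cpamd8 or C3, and of the 5 genes with a probe 0 were called by limma (1 at an unadjusted p under 0.05), with differences of -0.27 to 0.21. They include A2ml1, named for its place beside Pzp (difference 0.06, SE 0.17).

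Among 6 genes for receptors and chaperones of protease complexes, 1 rose and 1 fell. Lrp1, the endocytic receptor that clears protease-laden alpha-macroglobulins, read 8.42 and 8.79 in KO and 9.45 and 9.70 in control, without overlap (difference -0.97, SE 0.16, 1.96-fold lower in KO, limma adjusted p = 0.00436). Asgr2, a subunit of the asialoglycoprotein receptor, rose by 0.85 (SE 0.15, limma adjusted p = 0.00619). Both calls were lost without control replicate 2 (adjusted p of 0.0584 and 0.0671). LRP1 is also made by macrophages and stellate cells. Of 9 measured Kupffer cell and macrophage markers 2 were called lower (Clec4f and Adgre1) and 0 higher, with a summed normalised intensity of 4546 and 4411 in KO and 5756 and 4913 in control. Of 8 stellate cell markers 0 were called by limma (2 at an unadjusted p under 0.05), with sums of 11502 and 10909 in KO and 13926 and 12088 in control. Dcn, a fibroblast proteoglycan gene of that list, was called lower when its 2 probes were averaged (-0.77, adjusted p = 0.0163), and its other bright probe read -1.12. Of 8 sinusoidal endothelial markers 2 were called lower (Clec4g and Fcgr2b), with sums of 7846 and 7413 in KO and 13470 and 12202 in control. Clec4g, the brightest of the 8, makes up most of each sum (12.38 and 12.12 in KO, 13.29 and 13.08 in control). The sums thus follow mainly that gene, and the median difference of the 8 was -0.25. Of these 4 marker calls that of Clec4g alone was kept whichever array was left out. It alone was also kept in the fit on probe averages, but Clec4g has 1 probe, so nothing was averaged for it. Clec4f, Adgre1 and Fcgr2b have 2, 3 and 3 probes. In the other marker lists Sox9 (cholangiocyte, 1 of 4), Ms4a1 (lymphocyte, 1 of 7) and Hbb-b2 (erythroid, 1 of 3) were called higher, and S100a9 (neutrophil, 1 of 4) and Amy2a5 (pancreatic acinar, 1 of 3) lower. Leaving out 1 array lost the call of Sox9 in 3 of 4 fits, S100a9 in 3, Hbb-b2 in 2, Ms4a1 in 1 and Amy2a5 in 0. S100a9 was above background on no array, and Ms4a1 on 1 KO and 0 control arrays. Among the Kupffer, endothelial and stellate markers, 2 genes of each list were above background on no array, and the part these cells have in the Lrp1 value was not tested.

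Genes that move heavy chains onto hyaluronan, or make and break hyaluronan, were mostly dim. Of 12 with a probe 8 were above background on no array, among them Tnfaip6, which encodes TSG-6 (7.30 and 7.51 in KO, 7.47 and 7.50 in control). Hyal2, a hyaluronidase gene, was the only one called (difference -0.62, SE 0.15, limma adjusted p = 0.0267), a call missed without KO replicate 2 (0.0678), control replicate 1 (0.160) or control replicate 2 (0.106). Itih5, a further heavy chain gene beside Itih2, read 7.76 and 8.07 in KO and 7.56 and 7.74 in control. It was above background on 1 KO and 0 control arrays and was not called (limma adjusted p = 0.235), so no size is given.

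Bikunin carries a chondroitin sulfate chain, and its precursor is cut by proprotein convertases. Of 16 measured genes of these steps 3 rose and 0 fell. Furin, a proprotein convertase of the Golgi, read 13.47 and 13.78 in KO and 12.49 and 12.46 in control on its brightest probe, without overlap (difference 1.15, SE 0.14, 2.22-fold higher in KO, limma adjusted p = 0.000891). Its other bright probe read 0.13, and with the mean of all 3 probes Furin was not called (0.43, adjusted p = 0.118). B3galt6, which adds a galactose to the linker of the chain, was above background on 2 KO and 0 control arrays and was at least 1.56-fold higher in KO (limma adjusted p = 0.00125). Xylt1, the xylosyltransferase gene that starts the chain, was called higher (limma adjusted p = 0.0376) but was above background on no array, so no size is given. Its call was lost without KO replicate 1, KO replicate 2 or control replicate 2. It was also lost in the fit on probe averages per gene (limma adjusted p = 0.0530), although Xylt1 has 1 probe and its difference was unchanged.

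**Figure D3:**
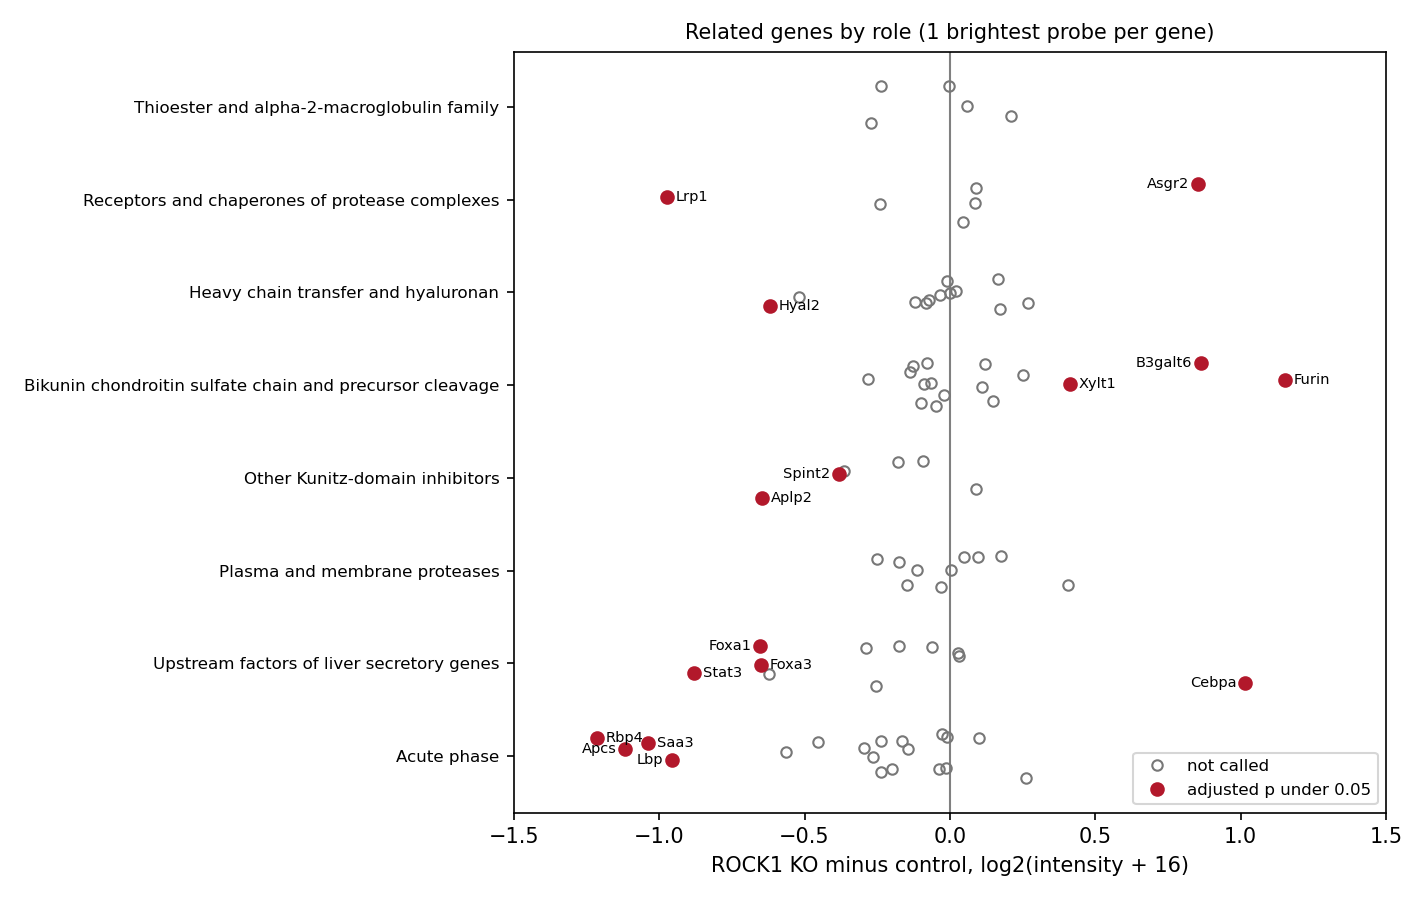
ROCK1 KO minus control difference in log2 units of 85 related genes, 1 brightest probe per gene, grouped by role, with filled red points for limma adjusted p under 0.05 and open points for genes not called. Points of genes at background, such as B3galt6 in control, are fitted values and not sizes. Furin (1.15) lies farthest to the right and Rbp4 (-1.21) farthest to the left.

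Of 6 other Kunitz-domain genes measured, 2 fell and 0 rose: Aplp2, an amyloid precursor relative (difference -0.65, SE 0.13, limma adjusted p = 0.0109), and Spint2, a membrane-bound inhibitor, at least 1.04-fold lower and above background on no KO array (limma adjusted p = 0.0442). The Aplp2 call was lost without either control array (0.0675 and 0.0725), and that of Spint2 without KO replicate 2 (0.205), control replicate 1 (0.107) or control replicate 2 (0.202). With its 2 probes averaged Spint2 read -0.13 (adjusted p = 0.375). Of 10 genes of plasma and membrane proteases, the enzymes these inhibitors act on or that act beside them, 0 were called by limma (1 at an unadjusted p under 0.05), with differences of -0.25 to 0.41.

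Transcription factors and receptors that drive liver secretory genes moved in both directions: of 11 measured, 1 rose and 3 fell. Cebpa, a factor of hepatocyte differentiation, read 9.81 and 10.09 in KO and 8.87 and 8.99 in control (difference 1.02, SE 0.15, 2.02-fold higher in KO, limma adjusted p = 0.00246). Stat3, which carries interleukin-6 signals to acute phase genes, read 10.10 and 9.92 in KO and 10.75 and 11.02 in control (difference -0.88, SE 0.17, limma adjusted p = 0.00803). Its other bright probes read -0.61 and -0.07, and Stat3 was not called by the average of its 3 probes (-0.52, adjusted p = 0.0613) or without control replicate 2 (0.0951). Foxa1 and Foxa3, forkhead factors of liver, fell by 0.65 each (limma adjusted p of 0.0264 and 0.0151). Without control replicate 2 neither was called (0.193 and 0.127), and the Foxa1 call was also lost without KO replicate 2 (0.0859) or control replicate 1 (0.0667). Hnf4a read -0.62 (SE 0.18, limma adjusted p = 0.0540) and was called without KO replicate 2.

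Of 19 acute phase genes measured 4 fell and 0 rose, with a median difference of -0.24. The list mixes genes that rise in inflammation with genes that fall, so this count and median do not describe a single response. Rbp4, a retinol carrier that falls in inflammation, read 12.41 and 12.31 in KO and 13.43 and 13.73 in control (difference -1.21, SE 0.14, 2.32-fold lower in KO, limma adjusted p = 0.000685). Apcs, the serum amyloid P gene, and Saa3 fell by 1.12 and 1.04 (limma adjusted p of 0.0163 and 0.0345), and Lbp, a binding protein for lipopolysaccharide, fell by 0.96 (0.0140). The control arrays of these 3 genes were spread, with an SD of 0.64 for Apcs, 0.78 for Saa3 and 0.43 for Lbp. Without control replicate 1 their calls were lost (0.109, 0.119 and 0.125), with differences of -0.65, -0.48 and -0.65, and the Saa3 call was also lost without either KO array (0.0638 and 0.0779). Without control replicate 2 Saa3 read -1.61. Saa1 (-0.14), Saa2 (-0.01), Orm1 (-0.01), Hp (-0.27) and Serpina3n (-0.17) were not called, and the other bright Hp probes read -0.46 and -0.72. In the fit on probe averages Hp (-0.48, limma adjusted p = 0.0393) and Ahsg, the fetuin-A gene (-0.50, 0.0271), were called lower. The Saa3 call was lost there (0.0833), although Saa3 has 1 probe and its difference was unchanged.

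Position was not used to pick the 8 genes, so the genes beside them were examined. The 6 nearest genes with a probe on each side of each gene or run of adjacent genes gave 60 neighbours, of which by limma 2 rose, 3 fell and 55 were not called, where 4.2% of all genes rose and 4.63% fell. Their median difference was 0.03. Around Mug1 and Mug2, 2 of 12 fell: Apobec1, an RNA-editing deaminase gene (difference -0.83, SE 0.15, limma adjusted p = 0.00560), and Usp18, an interferon-induced protease gene (-0.64, SE 0.16, 0.0273). Both calls were lost without control replicate 1 (0.0582 and 0.169), and that of Usp18 also without KO replicate 1 (0.0882). With its 3 probes averaged Usp18 read -0.37 (adjusted p = 0.157), and its other bright probe read -0.33. Klrg1, named for its place next to Mug2, was not called and was above background on no array.

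Around Itih4, Itih3 and Itih1 on chromosome 14, 1 of 12 neighbours rose, the signal peptidase gene Spcs1 (difference 0.48, SE 0.13, limma adjusted p = 0.0423), a call lost without any 1 array (0.0835 to 0.174) and with its 2 probes averaged (0.35, 0.132). Around Itih2 on chromosome 2 and around Pzp, 0 of 12 were called each by limma, with 1 and 2 at an unadjusted p under 0.05. Their differences ran over -0.43 to 0.27 around Itih2 and -0.20 to 0.41 around Pzp. Around Ambp on chromosome 4, Hdhd3 rose by 0.78 (limma adjusted p = 0.0194) and Rgs3, a regulator of G protein signalling, fell (-0.77, 0.0213). The Hdhd3 call did not hold without KO replicate 2 (0.0845), control replicate 1 (0.0532) or control replicate 2 (0.169). Rgs3 was not called without KO replicate 2 (-0.56, 0.114) or control replicate 2 (-0.55, 0.177). Its other bright probe read 0.61, and the mean of the 8 Rgs3 probes read 0.04. Orm1, an acute phase gene near Ambp, was not called (-0.01).

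**Figure D4:**
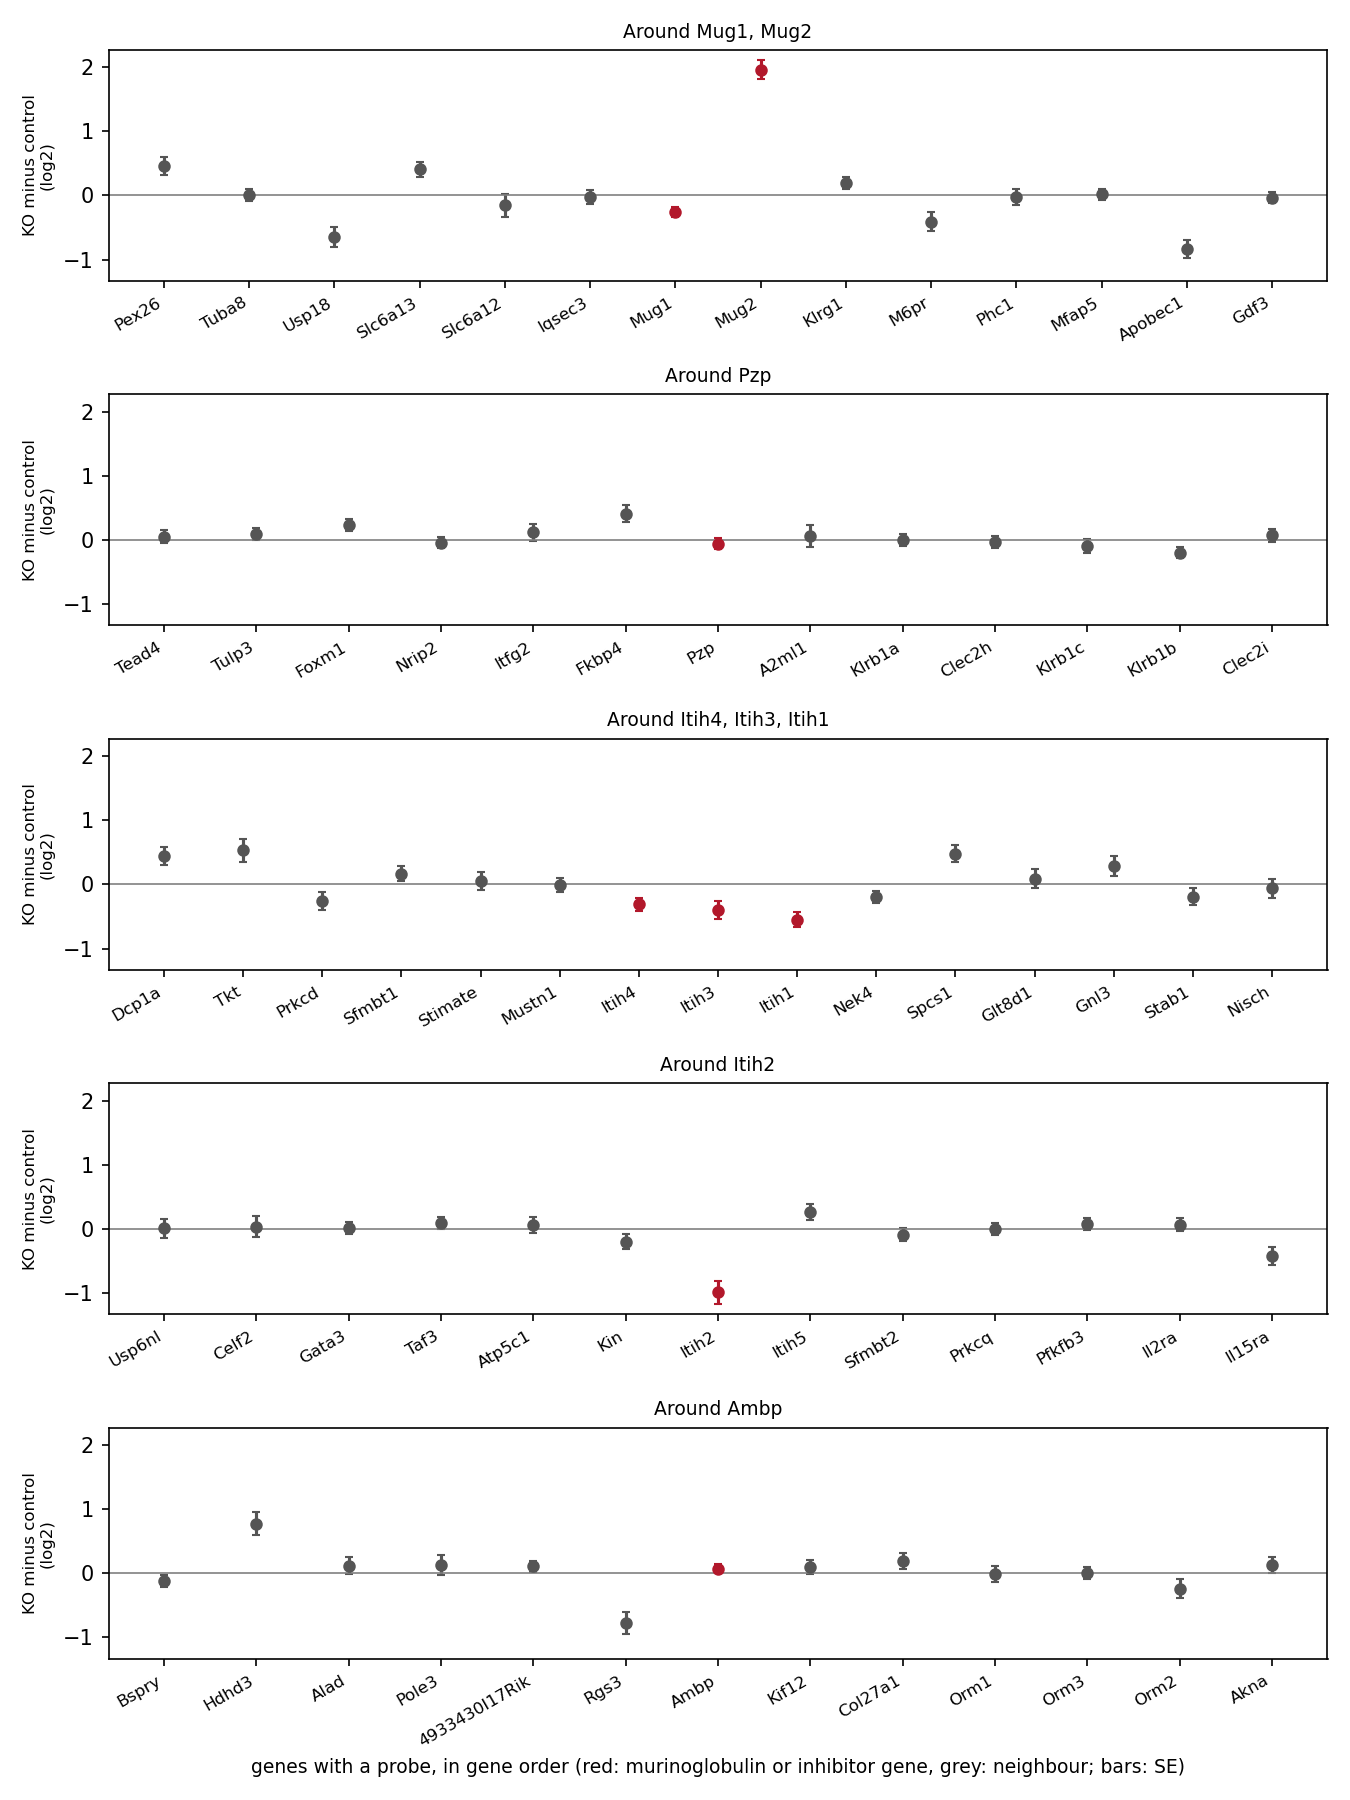
ROCK1 KO minus control difference in log2 units (± SE, 2 arrays per group) of the 8 genes (red, brightest probe) and of the 6 nearest genes with a probe on each side (grey), in gene order. Mug2 stands at 1.96 beside Mug1 at -0.25. Points of genes at background, such as Klrg1 and Itih5 in control, are fitted values and not sizes.

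Genes with the values most like those of a member were sought over the 4 arrays, after subtracting each gene's mean, by Euclidean distance in log2 units. Nearest to Mug2 were Anpep, an aminopeptidase gene (distance 0.13, difference 1.87), Selenow (0.19, difference 1.85), Anxa11 (0.27, difference 1.70), H2-Bl (0.28) and Psme3 (0.32, difference 1.75). H2-Bl was above background on only 2 arrays. Nearest to the brightest Itih4 probe were Pak1ip1, Olfr206, Itgb3bp, Spata22 and Ddx39a, at distances of 0.012 to 0.029. Of these, Olfr206 and Ddx39a were above background on no array. Nearest to the Pzp probe were AA467197, Olfr798, Kcnrg, Ocln and Serpinb1b, all but Ocln below background on every array.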

How the data were processed

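Liver RNA was read on Illumina bead arrays in a single colour, Cy3-streptavidin, per the labels. The deposited intensities are linear bead summary values per probe, without detection p-values and with background left in, per the file headers and the values. A separate table of the authors' log2 values ranked the probes of each array identically (rank correlation 1). It served as an alternative, its normalisation being unstated in the sources used here. Their medians were 7.63 on all 4 arrays, with no centring of genes.

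Intensities were quantile normalised, 16 was added and log2 taken, and limma 3.58.1 in R 4.3.3 (eBayes with an intensity trend, two-sided) compared ROCK1 KO with control over all 25697 probes with Benjamini-Hochberg adjustment. The script was tested on simulated data. The background limit, a log2 value of 7.85, is 3 SD above the mode. Outside the 8 genes, where 1 group had no array above it, the text gives at most a lower limit of the fold. In that limit each array of the dim group counts at no less than its lowest value above the background limit. Symbols came from the platform annotation, updated through RefSeq identifiers of GRCm38.p6, which also gave gene order and promoters. Biopython 1.88 aligned promoters. The members and lists were chosen with earlier results of these data known. Named genes were all members, called genes of the lists, 14 fixed genes, checks and the 5 most alike genes of 3 probes. A2ml1, Klrg1, Dcn and Ahsg were named after their values were seen. Alternatives covered offset, background correction, normalisation, the authors' values, a dim-probe filter, the variance model, the replicate block, single arrays left out and the mean over a gene's probes. Some listed items are not reported here.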

Additional observations from a re-analysis of the deposited data

How the results depend on the processing

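The differences of the 2 bright Mug2 probes ran from 1.54 to 2.07 over every alternative run on single probes, single arrays left out included. Since the genes were picked with this contrast known, nothing is read from this range. The mean over all 3 Mug2 probes, 1 of them at background, is not given here. The count of the 12 probes called lower, 2, ranged from 0 to 2 when 1 array was left out (0 without control replicate 2, 1 without KO replicate 1), and was 3 with the replicate block, which added Itih4 probe ILMN_2718431. The median difference over the 12 probes was -0.36 with 75th percentile scaling, -0.33 with normexp and that scaling and -0.24 over the 10 probes left by a filter on dim probes, and ran from -0.20 to -0.067 when 1 array was left out. Related genes called higher numbered 3 when a gene's probes were averaged and 3 to 6 with 1 array left out, and those called lower 4 to 12. Neighbouring genes called higher numbered 5 with the dim-probe filter, with no intensity trend and with the replicate block, 1 with a gene's probes averaged and 0 to 2 with 1 array left out; those called lower numbered 1 with a gene's probes averaged and 1 to 3 with 1 array left out. Over all probes, 294 to 799 were called higher and 488 to 880 lower with 1 array left out. With the replicate number as a block, 1440 probes were called higher and 1480 lower. The arrays share only a number: same-numbered arrays deviated from their group means with a correlation of -0.06 across probes, so no pairing was assumed. Dim probes have their differences shrunk by the background left in.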
